A study of Homo sapiens with 38 samples.

Results

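The values below are those of every transcript of the Argonaute genes AGO1, AGO2, AGO3 and AGO4, followed one transcript at a time through nuclear and cytoplasmic RNA of HCT116 cells. All rows of these 4 genes were taken, whatever their level, which gave 23 transcripts of the 200401 listed for each library: 3 of AGO1, 10 of AGO2, 7 of AGO3 and 3 of AGO4. By annotation 10 of them are protein-coding, 3 are targets of nonsense-mediated decay, 5 are retained-intron transcripts and 5 are spliced transcripts with no defined coding sequence. The 19 transcripts that averaged at least 1 TPM in at least 1 group are described by name. The remaining 4 (AGO1-203, AGO2-205, AGO4-202 and AGO4-203) stayed below 1 TPM in each group mean.

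HCT116 is an established human colorectal cancer line. RNA-seq was carried out on wild-type cells (passages 27, 28 and 29) and on 4 lines derived from HCT116 by CRISPR editing: AGO1-/- (passages 6, 7 and 8), AGO2-/- (8, 9 and 10), AGO1/2-/- (9, 10 and 11) and AGO1/2/3-/- (11, 12 and 14). Every group held 3 nuclear and 3 cytoplasmic libraries. AGO4 was not edited in any line, and no group carried a treatment. Each genotype was 1 line, so genotype, clone and passage cannot be told apart, and p-values measure the spread between passages of 1 line. The positions of the guide RNAs were not used here. An edit that shifts the reading frame need not lower RNA, so genotype names below are those of the labels, and the RNA checks a label only where it fell.

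Argonaute proteins hold a small guide RNA, usually a miRNA, and bring it to complementary transcripts. AGO2 can cut a perfectly matched target. AGO1, AGO3 and AGO4 act mainly through partner proteins of the TNRC6 family that recruit deadenylation complexes, and AGO2 works with TNRC6 proteins too. A single gene can give several transcripts. Full-length coding transcripts yield the complete protein, transcripts with an early stop codon are degraded by nonsense-mediated decay during translation, and transcripts that keep an intron are often held in the nucleus.

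AGO4, AGO1 and AGO3 lie side by side on the plus strand of chromosome 1. On GRCh38 with the GENCODE 44 annotation, AGO1-201 (ENST00000373204.5) spans 35883209 to 35930532 in 19 exons, AGO3-203 (ENST00000373191.8) spans 35931105 to 36072500 in 19 exons, and AGO4-201 (ENST00000373210.3) spans 35808016 to 35857890 in 18 exons. The junction of coding exons 4 and 5 is shown for each because it lies at the same place of the paralogous coding sequences and lets the reader see how alike and yet how separable the members are. Lower case marks the end of exon 4 and capitals the start of exon 5.
AGO1-201: cctggcatccatgagGTACACCCCTGTGGG
AGO3-203: tctgccctccatgaaATACACACCTGTGGG
AGO4-201: ccttccctccatgagGTACACCCCAGTGGG
Of these 30 bases, AGO1-201 shares 26 with AGO4-201 and 24 with AGO3-203, and AGO3-203 shares 24 with AGO4-201. Few runs of 31 bases were held in common with another AGO gene: 2 for AGO1-201, 15 for AGO3-203 and 13 for AGO4-201.

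Within AGO3, the transcripts AGO3-202, AGO3-203, AGO3-204 and AGO3-207 share the exon that ends at base 35973511 and part after it. AGO3-203 joins it to an exon that starts at 36004341, whereas AGO3-202 (ENST00000324350.9) and AGO3-204 (ENST00000397828.3) join it to a terminal exon that starts at 35982621, a junction that AGO3-207 also holds. AGO3-207 runs on from there to later exons, and AGO3-201 lacks the shared exon. This splice is shown because the full-length AGO3-203 and the short coding AGO3-202 and AGO3-204 differ at it. Capitals again mark the downstream exon.
AGO3-203: tgcttaatatcgatgTTTCTGCCACTGCCT
AGO3-202 and AGO3-204: tgcttaatatcgatgAAAGAGACCTCTGGC
The coding sequence of AGO3-203 is 2580 bases long, and that of AGO3-202 and of AGO3-204 is 687 bases. AGO1-201 and AGO1-202 differ at both ends. The last exon is 11034 bases long in AGO1-201 and 1460 in AGO1-202. At the start of AGO1-201, exon 1 (ending at 35883446) joins exon 2 (starting at 35888427) through a junction held by no other AGO1 transcript.
AGO1-201, exons 1 and 2: gaccctcgggagcagCTGCGGGCGCTTACC
How well a transcript can be told from the others depends on sequence of its own. The share of 31-base runs found in no other transcript of the same gene was 71.7% for AGO1-201, 81.8% for AGO3-203, 45.6% for AGO3-202 and 91.9% for AGO4-201, but 2.34% for AGO1-202, 0.91% for AGO3-201 and 1.29% (13 runs) for AGO3-204. Reads on shared exons were divided among these transcripts by the quantifier.

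**Figure D1:**
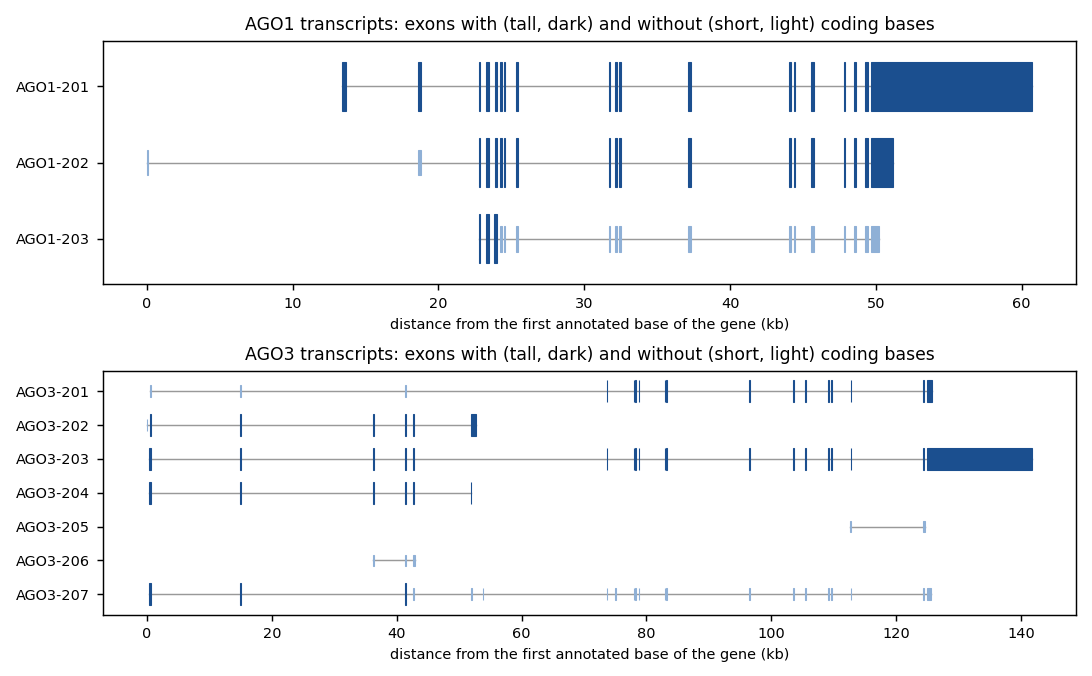
Exons of the AGO1 (top) and AGO3 (bottom) transcripts against distance from the first annotated base of the gene in kb. Each row is 1 transcript, tall dark boxes are exons that hold coding bases (whole exon drawn) and short light boxes are exons without. AGO3-202 and AGO3-204 end at the early terminal exon, whereas AGO3-201 and AGO3-203 continue past it.

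Levels are given as TPM, which is scaled for transcript length and library total, with the mean ± SD of 3 libraries. Changes between genotypes are log2 changes of estimated reads from edgeR's quasi-likelihood test over all transcripts of a fraction, with their standard errors (SE), and a transcript is said to be called where the p adjusted by Benjamini-Hochberg was 0.05 or less. Libraries held 20431557 to 54097984 estimated reads in the nucleus, of which 16995 to 29011 belonged to the members, and 39476205 to 79731793 in the cytoplasm (25218 to 45994), with wild-type libraries the shallowest of both fractions. The epithelial markers EPCAM, KRT8, KRT18 and CDH1 were present in every library, CDX1 was at 0 in all, and the leukocyte and fibroblast markers were at or close to 0. TPM and read scales did not share a centre: on log2(TPM + 0.1) the median transcript of the nucleus lay 0.22 to 0.32 below wild type (-0.22 in AGO1-/-, -0.25 in AGO2-/-, -0.24 in AGO1/2-/- and -0.32 in AGO1/2/3-/-), against -0.12 in AGO1/2-/- and -0.05 in AGO1/2/3-/- with edgeR. In the cytoplasm this TPM shift was -0.07, -0.13, -0.22 and -0.14 in the same order.

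AGO1 is one of the Argonautes that act mainly through partner proteins. Its full-length transcript was lower in each of the 3 AGO1-edited lines, and the fall was larger in the cytoplasm than in the nucleus. Cytoplasmic AGO1-201 stood at 6.69, 6.56 and 5.60 TPM in the wild-type libraries and at 0.534, 0.624 and 0.555 TPM in AGO1-/-. It was 0.532, 0.536 and 0.66 TPM in AGO1/2-/-, and 0.646, 0.66 and 0.597 TPM in AGO1/2/3-/-. The 9 edited libraries all lay below the wild-type libraries, with log2 changes of -3.33, -3.07 and -3.05 (SE 0.08 each; adjusted p = 9.0e-10, 1.0e-09 and 1.1e-09). In AGO2-/-, which keeps the gene, the level was 6.14 ± 0.097 TPM and the change of 0.18 was not called.

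Nuclear AGO1-201 fell less. It was 8.08, 8.20 and 6.07 TPM in wild type, 3.12, 2.56 and 2.61 TPM in AGO1-/-, 1.99, 1.99 and 2.12 TPM in AGO1/2-/- and 2.18, 2.16 and 1.91 TPM in AGO1/2/3-/-. The groups again did not overlap, and the log2 changes were -1.16, -1.64 and -1.45 (SE 0.07 each; adjusted p = 1.9e-05, 2.2e-08 and 9.2e-08). The nuclear change minus the cytoplasmic change was tested directly over all 30 libraries and came to 2.11 in AGO1-/-, 1.36 in AGO1/2-/- and 1.62 in AGO1/2/3-/- (adjusted p = 2.6e-11, 5.1e-09 and 1.9e-09). All of these calls held when any single library was left out.

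AGO1-202 is a coding transcript with another first exon and a shorter last exon. It fell to between 0 and 0.362 TPM in the cytoplasm of the AGO1-edited lines from 7.51, 6.63 and 4.96 TPM in wild type. Its change was called in AGO1/2/3-/- (-5.72 ± 1.30 SE, adjusted p = 0.014) and in AGO1/2-/- (-4.19 ± 1.19, adjusted p = 0.030). The AGO1/2/3-/- call was kept without any single library, but 2 of its 3 libraries were at 0 and the fitted value went to -14.13 without passage 14, when both remaining libraries were at 0. It was lost when only the 2 groups compared entered the fit (the 2-group fit). It missed the threshold in AGO1-/- (-4.75 ± 1.23, adjusted p = 0.087) although no library overlapped wild type. AGO1-202 has 2.34% of its 31-base runs to itself. In the cytoplasmic AGO1/2/3-/- libraries where it was at 0, AGO1-203 was 0.161 and 0.362 TPM. The AGO1/2-/- call ended without AGO1/2-/- passage 9, 10 or 11 or wild-type passage 27 or 28 (-4.24 to -4.09), with DESeq2 and without the filter on low counts. In the nucleus AGO1-202 was called in AGO1/2/3-/- (0.362 ± 0.37 against 3.36 ± 0.79 TPM, -2.82, adjusted p = 0.031), a call lost without AGO1/2/3-/- passage 11 or wild-type passage 27 or 28 (-2.83 to -2.68) and in the 2-group fit. AGO1-203, a target of nonsense-mediated decay that averaged under 1 TPM in each group, was called in nuclear AGO1/2-/- (-3.34, adjusted p = 0.031), and that call ended without AGO1/2-/- passage 9, 10 or 11 or wild-type passage 27 or 29 (-3.75 to -2.57), on log2(TPM + 1) and in the 2-group fit.

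**Figure D2:**
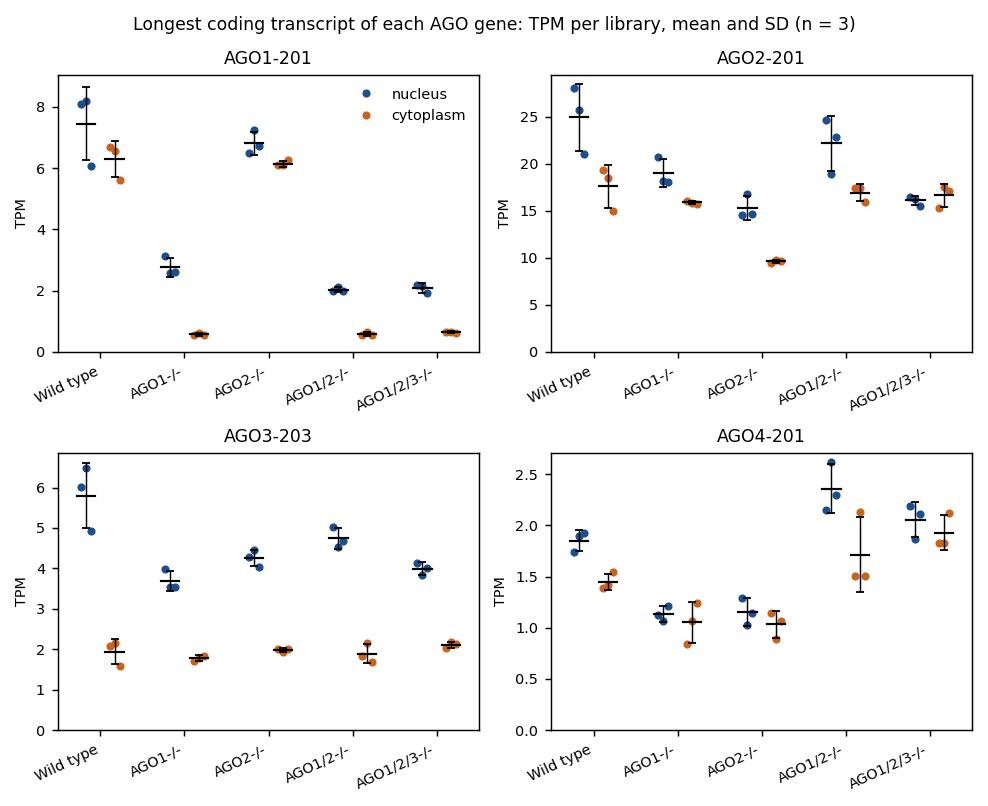
TPM of AGO1-201, AGO2-201, AGO3-203 and AGO4-201 (y axis) in each library of the 5 genotypes (x axis), nucleus in blue and cytoplasm in orange. Points are libraries, black lines the mean and error bars the SD of 3. Cytoplasmic AGO1-201 lies at or below 0.66 TPM in the 3 AGO1-edited lines, whereas AGO2-201, AGO3-203 and AGO4-201 stay well above 0 in every group.

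AGO2 encodes the Argonaute with the strongest slicing activity and lies on the minus strand of chromosome 8, where AGO2-201 (ENST00000220592.9) spans 140520156 to 140635633 in 19 exons. The full-length AGO2-201 was lower in AGO2-/- and remained the most abundant AGO transcript there. In the cytoplasm it was 19.3, 18.4 and 15.0 TPM in wild type and 9.74, 9.69 and 9.39 TPM in AGO2-/- (log2 change -0.66 ± 0.06 SE, adjusted p = 0.00018). In the nucleus it was 28.1, 25.7 and 21.0 TPM in wild type and 16.7, 14.6 and 14.5 TPM in AGO2-/- (-0.37 ± 0.08, adjusted p = 0.0082). The libraries did not overlap in either fraction, and both calls held without any single library.

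The double and triple lines carry the AGO2 label as well, and their changes were not tested against that of AGO2-/-. Cytoplasmic AGO2-201 was 15.9, 17.4 and 17.5 TPM in AGO1/2-/- and 15.3, 17.5 and 17.1 TPM in AGO1/2/3-/-, both within the wild-type range. The log2 change was 0.33 ± 0.06 in AGO1/2-/- (adjusted p = 0.0033, called as higher) on reads but -0.05 on log2(TPM + 0.1) and -0.05 on log2(TPM + 1), where it was not called, and the call was lost in the 2-group fit. In AGO1/2/3-/- it was 0.18 (adjusted p = 0.093). Nuclear AGO2-201 was 22.8, 24.6 and 18.9 TPM in AGO1/2-/-, overlapping wild type (0.06, adjusted p = 0.59), and 16.5, 16.2 and 15.5 TPM in AGO1/2/3-/- (-0.25 ± 0.08, adjusted p = 0.033), which lay below every wild-type library and overlapped AGO2-/-. That last call was lost without AGO1/2/3-/- passage 11, 12 or 14 or wild-type passage 27 or 28 (-0.27 to -0.18), with DESeq2, with RLE size factors, without the filter on low counts and in the 2-group fit. The effect on AGO2-201 was lower in the nucleus than in the cytoplasm by 0.34 in AGO1/2-/- (interaction -0.34, adjusted p = 0.031) and by 0.41 in AGO1/2/3-/- (-0.41, adjusted p = 0.013). The first ended without nuclear wild-type passage 27, cytoplasmic wild-type passage 29, nuclear AGO1/2-/- passage 11 or cytoplasmic AGO1/2-/- passage 10 (-0.27 to -0.24), and the second without nuclear wild-type passage 27 (-0.34). On log2(TPM + 1) the first was not called either.

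AGO2-209, a target of nonsense-mediated decay that shares nearly all of its sequence with coding AGO2 transcripts (0.86% of its 31-base runs are its own), was the second most abundant AGO2 transcript of the cytoplasm. It was 11.4, 11 and 8.91 TPM in wild type, 5.26, 3.59 and 4.31 TPM in AGO2-/-, 6.81, 6.63 and 5.74 TPM in AGO1/2-/- and 5.44, 6.40 and 6.09 TPM in AGO1/2/3-/-. None of the libraries of these 3 lines reached the wild-type range, but the change of -0.32 in AGO1/2-/- was not called (adjusted p = 0.11). The change was called in AGO2-/- (-1.04 ± 0.13 SE, adjusted p = 0.00091) in the fits without each library too, and in AGO1/2/3-/- (-0.54 ± 0.12, adjusted p = 0.014) unless AGO1/2/3-/- passage 11 or wild-type passage 27 or 28 was left out (-0.52 to -0.49). In the nucleus AGO2-209 was called in AGO2-/- (-0.66, adjusted p = 0.039) and AGO1/2/3-/- (-0.68, adjusted p = 0.017). These ended without AGO2-/- passage 8, 9 or 10 or wild-type passage 28 or 29 (-0.68 to -0.53) and without AGO1/2/3-/- passage 12 or 14 or wild-type passage 28 (-0.65 to -0.53). The first was also lost without the filter on low counts and the second in the 2-group fit.

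Several short AGO2 transcripts without a full coding sequence were lower in the double and triple lines. In these nuclei non-coding transcripts also fell against coding ones over all genes. The median log2 ratio change was -0.82 in AGO1/2-/- and -0.61 in AGO1/2/3-/-. Reads were few: nuclear wild type held a mean of 34.6 estimated reads for AGO2-208, 11.6 for AGO2-204 and 33.2 for AGO2-206. Nuclear AGO2-208, a retained-intron transcript with 74.7% of its 31-base runs to itself, was 2.60, 2.53 and 1.68 TPM in wild type, 0.75, 0.474 and 0.878 TPM in AGO1/2-/- and 0.637, 0.878 and 0.961 TPM in AGO1/2/3-/-. The groups did not overlap, and the changes of -1.47 ± 0.28 (adjusted p = 0.0011) and -1.07 ± 0.27 (adjusted p = 0.011) held without any single library. AGO2-204 (-2.57, adjusted p = 0.039) and AGO2-206 (-1.19, adjusted p = 0.037), both retained-intron transcripts, were called in nuclear AGO1/2-/-, but each kept its call in only 2 of the 6 fits that left out a library. AGO2-204 was not called without AGO1/2-/- passage 9 or 11 or wild-type passage 27 or 29 (-2.75 to -1.87), nor AGO2-206 without AGO1/2-/- passage 10 or 11 or wild-type passage 27 or 28 (-1.28 to -0.89). Both were lost without the filter on low counts and in the 2-group fit, AGO2-206 with RLE size factors as well, and AGO2-204 was -4.13 without AGO1/2-/- passage 10. AGO2-202, a short spliced transcript with no defined coding sequence, was called in cytoplasmic AGO1/2/3-/- (1.08 ± 0.44 against 4.76 ± 0.31 TPM, -1.88, adjusted p = 0.0498), a call that leaving out any of the 6 libraries ended (-2.14 to -1.57), as did testing without the filter on low counts. It also lay below every wild-type library in cytoplasmic AGO2-/- (1.73, 0.47 and 1.54 TPM) and AGO1/2-/- (3.71, 1.51 and 1.95 TPM), where it was not called. Nuclear AGO2-202, AGO2-203, AGO2-207 and AGO2-210 had no called change. The coding AGO2-205 averaged 0.139 to 0.975 TPM over the groups and was not called in either fraction.

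AGO3 is the gene in which AGO1/2/3-/- and AGO1/2-/- differ by label, and its full-length transcript had no called difference between these lines. Nuclear AGO3-203 was 4.67, 5.02 and 4.53 TPM in AGO1/2-/- and 4.14, 3.83 and 4.01 TPM in the libraries labelled AGO1/2/3-/-. The latter lay below the former in every library, and the log2 difference was -0.10 (95% interval -0.21 to 0.02, adjusted p = 0.57). Cytoplasmic AGO3-203 was 1.69, 1.82 and 2.15 TPM against 2.02, 2.18 and 2.13 TPM, which overlapped, with a difference of 0.04 (interval -0.12 to 0.20). The remaining AGO3 transcripts differed by -0.12 to 0.44 in the nucleus and by -0.39 to 0.05 in the cytoplasm, and none was called. Over all members, 0 of 21 nuclear and 0 of 17 cytoplasmic transcripts were called between these lines by edgeR, where 0.0652% and 0.0372% of all transcripts were. At an unadjusted p of at most 0.05 the counts were 5 and 2. DESeq2 called 1 nuclear and 0 cytoplasmic members, and edgeR called 1 when AGO1/2-/- passage 11 was left out. The members called in those fits are not named here. Nuclear AGO2-201 averaged 22.1 ± 2.9 TPM in AGO1/2-/- and 16.1 ± 0.51 TPM in AGO1/2/3-/-. Its libraries did not overlap, but it was not called by edgeR over all libraries of the fraction.

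Against wild type AGO3-203 had a called change in 1 line of the nucleus and 2 of the cytoplasm. Nuclear levels were 6.01, 6.48 and 4.91 TPM in wild type and 3.98, 3.55 and 3.53 TPM in AGO1-/-, the line with the called nuclear change (-0.38 ± 0.06 SE, adjusted p = 0.0031, kept without any single library but lost in the 2-group fit). The nuclear libraries of AGO2-/- (4.45, 4.04 and 4.28 TPM) and AGO1/2/3-/- (4.14, 3.83 and 4.01 TPM) also lay below every wild-type library, without a called change. Those of AGO1/2-/- overlapped wild type. In the cytoplasm wild type stood at 2.07, 2.16 and 1.59 TPM, overlapping each line. The changes of 0.34 ± 0.08 in AGO1/2-/- (adjusted p = 0.014) and 0.38 ± 0.08 in AGO1/2/3-/- (adjusted p = 0.011) were called as higher on reads, but on log2(TPM + 0.1) they were -0.03 and 0.12 and not called, so that the direction in AGO1/2-/- turned with the scale. The AGO1/2-/- call also ended without AGO1/2-/- passage 11 or wild-type passage 29 (0.27), and both calls ended in the 2-group fit. The nuclear change lay below the cytoplasmic change by 0.47 in AGO1/2-/- (interaction -0.47, adjusted p = 0.0020) and by 0.51 in AGO1/2/3-/- (-0.51, adjusted p = 0.0014), with or without any single library, though on log2(TPM + 1) the first was not called. In AGO2-/- the interaction was -0.40 (adjusted p = 0.045), and leaving out any of 10 of the 12 libraries compared (all but cytoplasmic wild-type passage 28 and nuclear wild-type passage 29) ended that call (-0.44 to -0.31).

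The estimated make-up of nuclear AGO3 RNA differed from wild type in transcripts that code for shorter proteins. AGO3-201, with a coding sequence of 1878 bases, was 0.930, 0.430 and 0.495 TPM in nuclear wild type, 1.51, 1.37 and 1.68 TPM in AGO1/2-/- and 1.45, 1.76 and 1.42 TPM in AGO1/2/3-/-. These lines lay above all wild-type libraries, with changes of 1.52 ± 0.31 (adjusted p = 0.0021) and 1.69 ± 0.31 (adjusted p = 0.0014) that held without any single library. AGO3-201 has 0.91% of its 31-base runs to itself and held 38.6 to 98.6 estimated reads in nuclear wild type. Its level thus depends on how shared reads were divided, which leaving out a library does not test. In AGO2-/- the change of 1.30 (adjusted p = 0.016) ended without AGO2-/- passage 9 or wild-type passage 28 or 29 (1.06 to 1.22), on both TPM scales and in the 2-group fit, and in AGO1-/- it was 1.09 (adjusted p = 0.058). AGO3-202, a short coding transcript, was 4.96, 4.89 and 3.36 TPM in nuclear wild type and lower in all 12 edited libraries. It stood at 2.16, 2.02 and 1.60 TPM in AGO2-/-, 1.43, 1.89 and 1.33 TPM in AGO1/2-/- and 1.69, 1.97 and 1.51 TPM in AGO1/2/3-/-, with changes of -0.86, -1.28 and -0.96 (SE 0.17 each; adjusted p = 0.0054, 8.2e-05 and 0.00098) kept without any single library. In AGO1-/- the level was 2.59 ± 0.55 TPM and the change of -0.50 was not called (adjusted p = 0.10).

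AGO3-204 moved the other way at the same time. It was at 0 in all 3 nuclear wild-type libraries and reached 2.24 TPM in nuclear AGO1-/-, 1.86 TPM in AGO2-/-, 2.62 TPM in AGO1/2-/- and 2.48 TPM in AGO1/2/3-/-, while nuclear AGO1-/- passage 6 and AGO1/2-/- passage 11 were at 0 too. Against a floor of 3 reads per wild-type library, the mean level in reads scaled to library total was at least 11.7-fold, 11.1-fold, 8.87-fold and 12.6-fold higher in the 4 lines. It was not called in AGO1-/- (adjusted p = 0.11) or AGO2-/- (adjusted p = 0.078). The change was called in AGO1/2-/- (adjusted p = 0.037) and AGO1/2/3-/- (adjusted p = 0.037), and it lost its call without wild-type passage 27, 28 or 29, AGO1/2-/- passage 9 or 10 or AGO1/2/3-/- passage 11 or 14 (adjusted p up to 0.098 and 0.089). On log2(TPM + 1) neither was called, and on log2(TPM + 0.1) the AGO1/2-/- change was not.

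AGO3-202 and AGO3-204 share their last junction and the length of their coding sequence, so their reads were also summed, an analysis chosen after the data were seen. The summed reads fell in nuclear AGO1/2-/- by 0.76 on the log2 scale (SE 0.23, adjusted p = 0.018). The sums in nuclear AGO1-/-, AGO2-/- and AGO1/2/3-/- changed by -0.16, -0.45 and -0.41 and were not called (adjusted p = 0.79, 0.24 and 0.20). Nuclear wild-type libraries held 7.72 to 10.0 summed RPM (reads scaled to library total). Nuclear AGO2-/- libraries held 5.34 to 6.2, AGO1/2-/- 2.45 to 4.99 and AGO1/2/3-/- 4.55 to 6.2, all below wild type. Those of AGO1-/- held 6.65 to 8.27 and overlapped wild type. The cytoplasmic sum rose in AGO2-/- (0.86), AGO1/2-/- (0.75) and AGO1/2/3-/- (0.70; adjusted p = 0.029, 0.013 and 0.028), mostly as AGO3-204, which alone was called in the same lines (0.91, 0.73 and 0.74; adjusted p = 0.040, 0.029 and 0.039). Each of those AGO3-204 calls ended without wild-type passage 27, 28 or 29, and without AGO2-/- passage 8 or 10, AGO1/2-/- passage 9 or 11 or AGO1/2/3-/- passage 11, 12 or 14 (0.64 to 0.94). On either TPM scale, without the filter on low counts and in the 2-group fit none of the 3 was called.

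**Figure D3:**
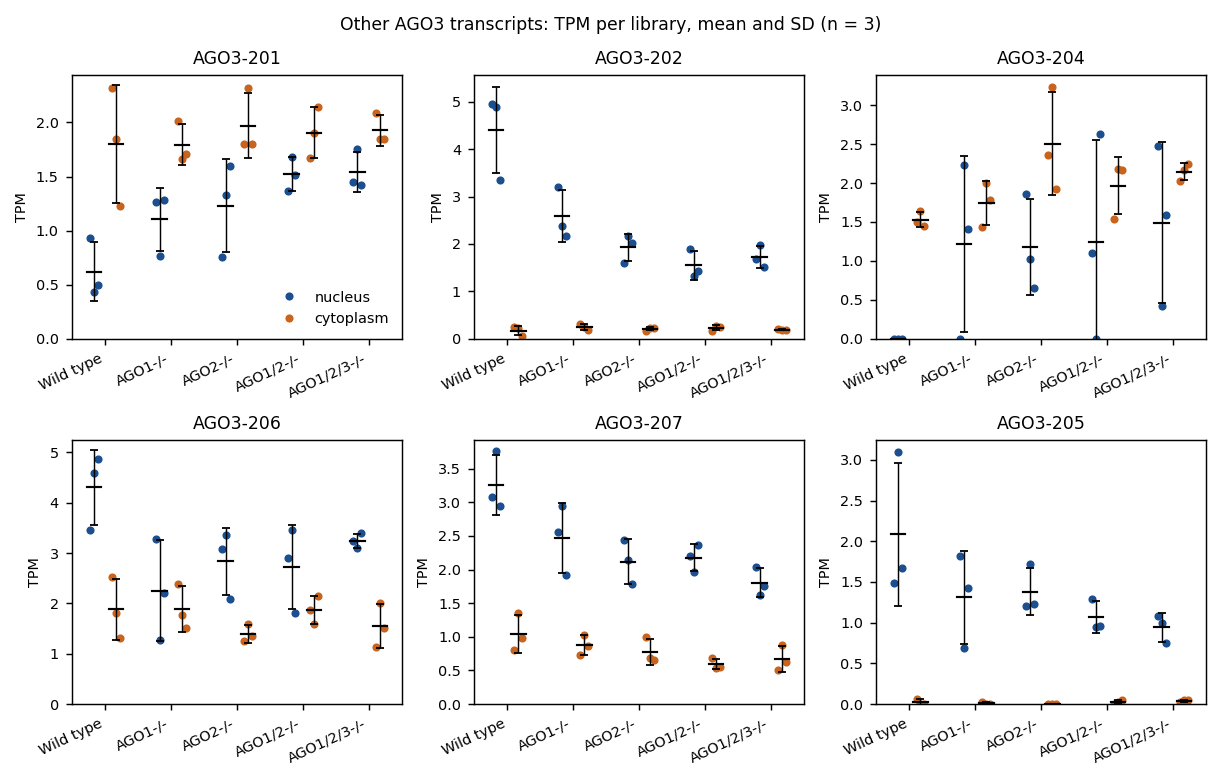
TPM of the AGO3 transcripts other than AGO3-203 (y axis) in each library of the 5 genotypes (x axis), nucleus in blue and cytoplasm in orange, with mean and SD of 3. Nuclear AGO3-202 is highest in wild type (3.36 to 4.96 TPM), nuclear AGO3-201 has its lowest mean there (0.430 to 0.930 TPM), and nuclear AGO3-204 is at 0 in wild type and scattered from 0 to 2.62 TPM in the edited lines.

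The nuclear and cytoplasmic effects on these AGO3 transcripts differed. For AGO3-202 the nuclear change lay below the cytoplasmic change by 2.16 in AGO1/2-/- (interaction -2.16, adjusted p = 0.00058, kept without any single library) and by 1.39 in AGO1/2/3-/- (-1.39, adjusted p = 0.032). The latter ended without any cytoplasmic AGO1/2/3-/- library, nuclear AGO1/2/3-/- passage 11 or 14 or nuclear wild-type passage 27 or 28 (-1.41 to -1.31). Summed with AGO3-204 the interactions were -1.34 in AGO2-/-, -1.58 in AGO1/2-/- and -1.09 in AGO1/2/3-/- (adjusted p = 0.020, 0.00043 and 0.017). AGO3-201 rose more in the nucleus than in the cytoplasm in AGO1/2/3-/- (1.34, adjusted p = 0.015), though not as a call without nuclear wild-type passage 28 (1.12, adjusted p = 0.051) or with RLE size factors (adjusted p = 0.065). AGO3-207, a target of nonsense-mediated decay, was called as lower in nuclear AGO1/2/3-/- (-0.47, adjusted p = 0.044), and leaving out any of the 6 libraries ended that call (-0.53 to -0.40), as did DESeq2, RLE size factors and testing without the filter on low counts. The retained-intron transcripts AGO3-205 and AGO3-206 had no called change, and AGO3-205 was too low to be tested in the cytoplasm.

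AGO4 was not edited, and its full-length transcript AGO4-201 was higher in the double and triple lines on the read scale. Nuclear levels were 1.74, 1.90 and 1.92 TPM in wild type, 2.30, 2.15 and 2.62 TPM in AGO1/2-/- and 2.19, 1.86 and 2.11 TPM in AGO1/2/3-/-, so that only AGO1/2-/- lay wholly above wild type. The changes were 0.57 ± 0.14 (adjusted p = 0.0064, kept without any single library) and 0.52 ± 0.14 (adjusted p = 0.014, lost without AGO1/2/3-/- passage 14 or wild-type passage 27, 0.45 to 0.47). In the cytoplasm wild type was at 1.39, 1.42 and 1.54 TPM, AGO1/2-/- at 1.5, 1.51 and 2.14 TPM and AGO1/2/3-/- at 1.83, 1.83 and 2.12 TPM. The changes of 0.61 (adjusted p = 0.034) and 0.66 (adjusted p = 0.032) ended without AGO1/2-/- passage 10 or 11, AGO1/2/3-/- passage 11, 12 or 14 or wild-type passage 27 or 28 (0.45 to 0.71), and the first was lost in the 2-group fit too. On log2(TPM + 0.1) the 4 changes kept their direction but were smaller, from 0.14 to 0.39, and none was called. On log2(TPM + 1) the nuclear AGO1/2-/- change of 0.23 was called (adjusted p = 0.0499). In the single lines AGO4-201 was lower than wild type in all 12 libraries, at 0.844 to 1.29 TPM, but the changes of -0.44 and -0.36 in the nucleus and -0.34 and -0.28 in the cytoplasm were not called. AGO4-202 and AGO4-203, short spliced transcripts with no defined coding sequence, averaged 0 to 0.685 TPM.

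Counted together, members were called in each line, and the share of all transcripts called stands beside each count. In the nucleus 2 of 21 tested members were called in AGO1-/- (6.68% of all transcripts), 4 in AGO2-/- (13.0% of all), 9 in AGO1/2-/- (37.4% of all) and 10 in AGO1/2/3-/- (28.4% of all). In the cytoplasm 1 of 17 was called in AGO1-/- (1.61% of all), 3 in AGO2-/- (2.47% of all), 6 in AGO1/2-/- (16.4% of all) and 7 in AGO1/2/3-/- (10.5% of all). The median member change in the nucleus was -0.96 in AGO1/2-/- and -0.74 in AGO1/2/3-/-, beside -0.12 and -0.05 over all transcripts. In nuclei of AGO1-/- and AGO2-/- it was -0.38 and -0.30, beside -0.01 and -0.005. In the cytoplasm it was -0.32 and -0.38 in the double and triple lines, -0.02 in AGO1-/- and -0.20 in AGO2-/-. Over all cytoplasmic transcripts it was 0 to 0.02. Members include transcripts of edited genes and many non-coding ones. In the double and triple nuclei such non-coding transcripts fell against coding ones over all genes. A change of the family beyond this make-up was not tested. Some single libraries moved the counts of called members by over 1.5 times. These counts are given without the share of all transcripts called in the same fits. Nuclear AGO1/2/3-/- fell to 5 without wild-type passage 27 or 28, nuclear AGO1/2-/- to 5 without wild-type passage 27, and nuclear AGO2-/- to 2 without AGO2-/- passage 9 or wild-type passage 28 or 29. Cytoplasmic AGO1/2/3-/- fell to 3 without wild-type passage 27 or 28 and to 4 without any 1 AGO1/2/3-/- library, and cytoplasmic AGO1/2-/- fell to 2 without AGO1/2-/- passage 11 and to 3 without wild-type passage 28. Of the 42 level calls, 21 held without any single library.

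**Figure D4:**
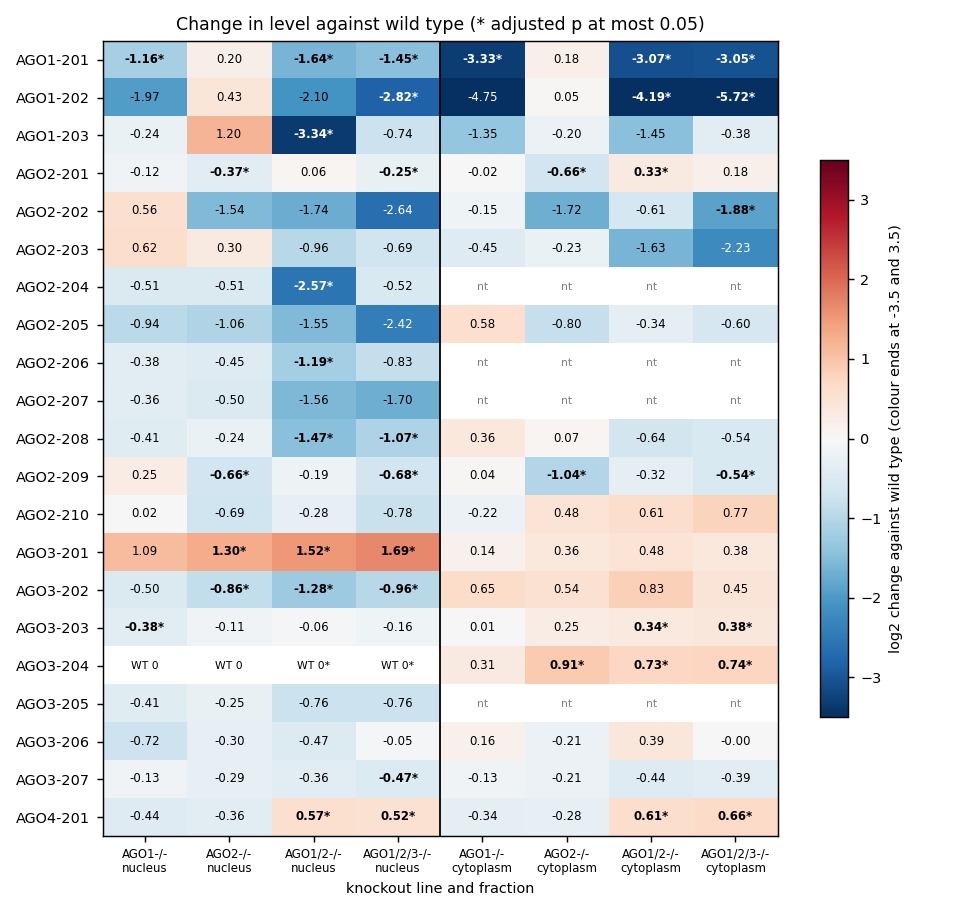
Log2 change of each tested AGO transcript (rows) against wild type in each line and fraction (columns), red for higher and blue for lower, with an asterisk and bold type at an adjusted p of at most 0.05. "WT 0" marks nuclear AGO3-204, which was at 0 in wild type, and "nt" transcripts too low to be tested. AGO1-201 is blue in every AGO1-edited column, from -1.16 to -3.33, and AGO3-201 is red in all 4 nuclear columns.

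The share of a transcript within its gene was compared as the log2 ratio of its TPM to the TPM of the gene's other transcripts, with 0.1 TPM added to each, by limma over all transcripts. In the nucleus AGO2-201 made up 47% ± 3.4 of AGO2 TPM in wild type, 65% ± 4.5 in AGO1/2-/- and 61.9% ± 5.2 in AGO1/2/3-/-, with log2 ratio changes of 1.06 (adjusted p = 0.0014) and 0.87 (adjusted p = 0.0081). In mean estimated reads, nuclear AGO2-201 held 11552 in wild type, 18735 in AGO1/2-/- and 13607 in AGO1/2/3-/-. The short AGO2-202, AGO2-203, AGO2-204, AGO2-207 and AGO2-210 held 10.3 to 43.2, 2.93 to 20.6 and 5.1 to 15 in the same order. The AGO2 shares thus rest in part on few reads. AGO3-201 rose from 3.08% ± 1.4 of AGO3 TPM in wild type to 10.2% ± 1.7 and 10.6% ± 2.0 (1.78 and 1.83; adjusted p = 0.0031 and 0.0048). AGO3-202 fell from 21.5% ± 3.3 to 10.3% ± 1.5 and 11.8% ± 2.2 (-1.20 and -0.99; adjusted p = 0.0014 and 0.0076). These 6 share changes held without any single library. With edgeR's test of transcripts within genes, and when coding transcripts alone were compared, the AGO2-201 changes were not called. The AGO3-202 changes were not called by the former. In AGO1/2/3-/- the AGO2-201 and AGO3-202 calls were also lost in the 2-group fit.

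Over all members, nuclear shares were called for 6 of 23 in AGO1/2-/- (29.9% of all transcripts tested) and 4 of 23 in AGO1/2/3-/- (19.8%). Limma called 0 of 23 in AGO1-/- (0.353% of all; 2 at an unadjusted p of at most 0.05; 1 by edgeR's test within genes), 0 in AGO2-/- (2.61% of all; 4 unadjusted; 1 by edgeR) and 0 between AGO1/2/3-/- and AGO1/2-/- (0.0372% of all; 4 unadjusted; 0 by edgeR). The other nuclear calls were AGO2-204 (-2.40), AGO2-208 (-0.97) and AGO4-202 (-1.37) in AGO1/2-/- and AGO3-204 (4.33, a value that depends on the added 0.1 TPM since wild type was at 0) in AGO1/2/3-/-. AGO2-204 lost its call without AGO1/2-/- passage 9 or wild-type passage 29 (-1.84 to -1.56), AGO2-208 without AGO1/2-/- passage 9 or 10 or any wild-type library (-1.07 to -0.60), AGO4-202 without AGO1/2-/- passage 9 or 10 or wild-type passage 27 or 29 (-1.48 to -0.86) and AGO3-204 without AGO1/2/3-/- passage 11 or 14 or any wild-type library (3.86 to 4.41). In the 2-group fit and in at least 1 other setting AGO2-204, AGO2-208 and AGO4-202 lost their calls as well. The count of 6 in AGO1/2-/- was 3 without AGO1/2-/- passage 9 or wild-type passage 29.

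Cytoplasmic shares were called for AGO1 and AGO2 transcripts. Of 20 members, limma called 0 in AGO1-/- (0.755% of all; 2 unadjusted; 0 by edgeR), 1 in AGO2-/- (0.919% of all), 1 in AGO1/2-/- (5.13% of all), 2 in AGO1/2/3-/- (2.19% of all) and 0 between AGO1/2/3-/- and AGO1/2-/- (0.0198% of all; 0 unadjusted; 0 by edgeR). AGO2-209 fell from 29% ± 0.51 of AGO2 TPM in wild type to 22.1% ± 2.0 in AGO1/2-/- and 22% ± 0.70 in AGO1/2/3-/- (both -0.52; adjusted p = 0.023 and 0.036). The first call ended without AGO1/2-/- passage 10 or 11 or wild-type passage 28 (-0.57 to -0.42), and the second without any 1 of the 6 libraries (-0.55 to -0.49). AGO2-210, a short coding fragment, rose from 5.23% ± 1.5 to 12.3% ± 1.7 in AGO2-/- (1.36, adjusted p = 0.035), a call lost without any AGO2-/- library or wild-type passage 27 or 28 (1.14 to 1.48). AGO1-203 was called in AGO1/2/3-/- (3.45, adjusted p = 0.027), where all AGO1 TPM was between 0.807 and 1.02, and that call ended without AGO1/2/3-/- passage 11 or 12 or wild-type passage 27 or 29 (2.95 to 3.35). Its mean level did not rise (0.185 against 0.287 TPM in wild type), and 3.88% of its 31-base runs are its own. In AGO1/2/3-/- passages 11, 12 and 14 AGO1-203 was 0.161, 0.362 and 0.0331 TPM, where AGO1-202 was 0, 0 and 0.293 TPM. The AGO1-203 share and the AGO1-202 level are thus not separate results, and the division of shared reads was not tested. In the 2-group fit none of these 4 calls was made, and edgeR's test within genes made that of AGO2-209 in AGO1/2/3-/- alone.

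**Figure D5:**
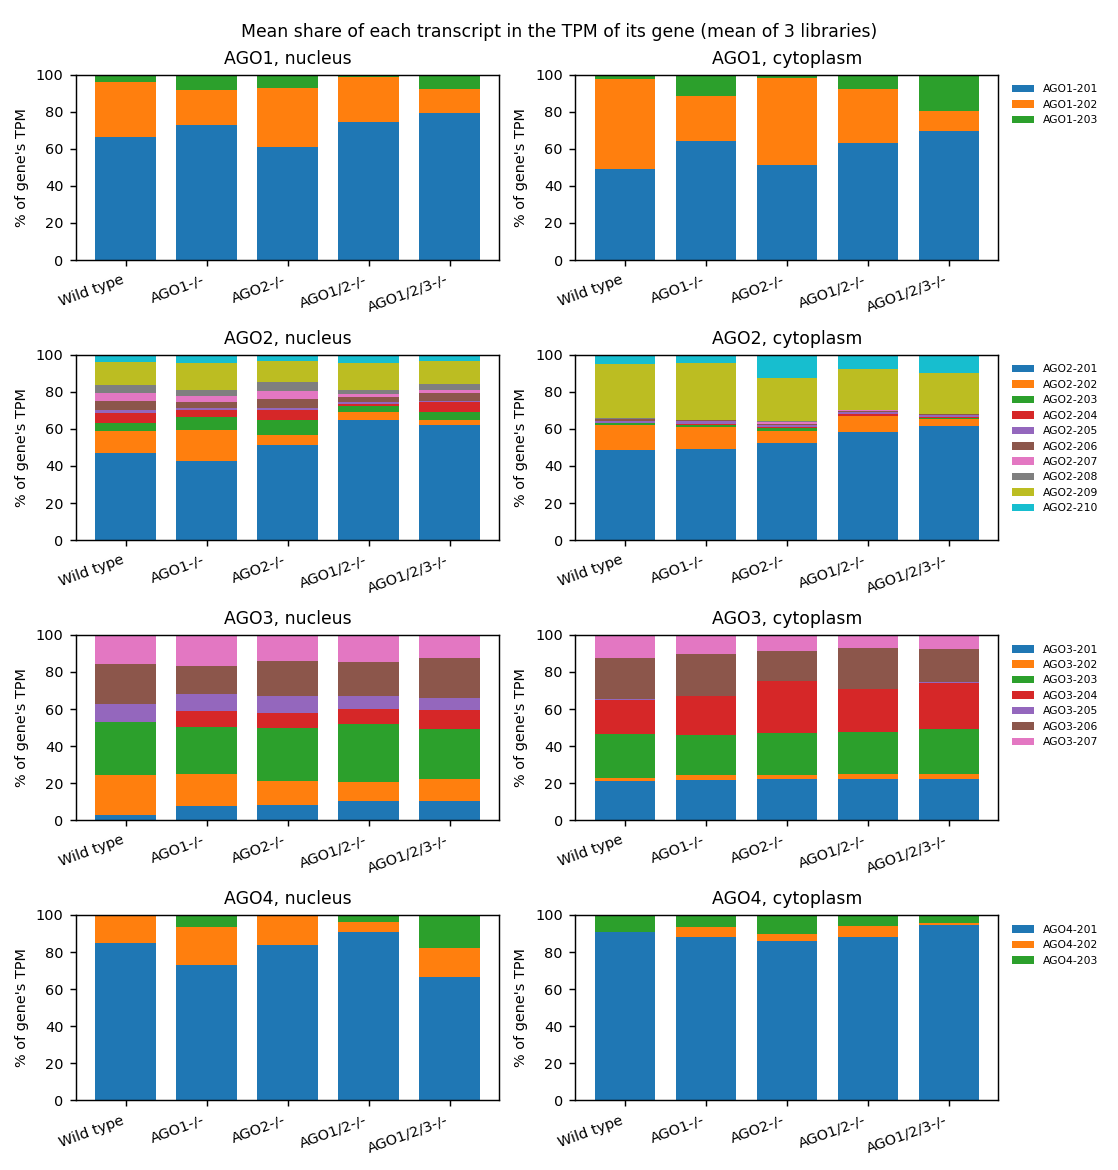
Mean share of each transcript in the TPM of its gene (y axis, percent, mean of 3 libraries) for the 5 genotypes (x axis), nucleus on the left and cytoplasm on the right, 1 row of panels per gene. In nuclear AGO2 the share of AGO2-201 is 47% in wild type and 65% in AGO1/2-/-, and in nuclear AGO3 the share of AGO3-202 is 21.5% in wild type and 10.3% in AGO1/2-/-.

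The balance of non-coding to coding transcripts asks whether transcripts not annotated as protein-coding behaved otherwise than the mRNA of the same gene. In the nucleus AGO2 had 24.8 TPM of non-coding and 28.2 TPM of coding transcripts in wild type, against 10.3 and 24.0 TPM in AGO1/2-/- and 8.94 and 17.2 TPM in AGO1/2/3-/-. Of its non-coding transcripts, AGO2-209 held a mean of 597 estimated reads in nuclear wild type and the others 11.5 to 43.2 each. The log2 ratio fell by 1.07 in AGO1/2-/- (adjusted p = 0.0011, kept without any single library) and by 0.79 in AGO1/2/3-/- (adjusted p = 0.011, lost without AGO1/2/3-/- passage 12, -0.62). Most genes moved this way: the median ratio change over all genes was -0.82 and -0.61 in these lines, with 59.0% and 46.9% of genes called, beside 1 of 4 AGO genes called in each line. No AGO gene was called in nuclear AGO1-/- (0 of 4 by limma, 0 unadjusted; 1.66% of all genes), nuclear AGO2-/- (0 of 4, 0 unadjusted; 14.2%) or between AGO1/2/3-/- and AGO1/2-/- (0 of 4, 1 unadjusted; 0.0517%). With 1 TPM added in place of 0.1, 1 gene was called in nuclear AGO1-/-.

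In the cytoplasm the AGO2 ratio fell by 0.73 in AGO1/2-/- (adjusted p = 0.043) and by 1.06 in AGO1/2/3-/- (adjusted p = 0.015), where the medians over all genes were 0.17 and 0.06. The AGO1 ratio rose by 2.60 (adjusted p = 0.038) and 3.45 (adjusted p = 0.019), with coding AGO1 at 0.842 and 0.732 TPM against 12.7 TPM in wild type and non-coding AGO1 at most 0.287 TPM in each group mean. AGO1-203 is the only non-coding AGO1 transcript, so this ratio is the AGO1-203 share compared above and no separate result. Thus 2 of 4 genes were called in AGO1/2-/- (8.87% of all genes) and 2 in AGO1/2/3-/- (3.44%). The AGO2 calls ended without AGO1/2-/- passage 10 or 11 or any wild-type library (-0.75 to -0.64) and without AGO1/2/3-/- passage 12 or 14 (-1.04 to -1.03). The AGO1 calls ended without AGO1/2-/- passage 9 or 10 or wild-type passage 27 or 29 (2.13 to 2.69) and without AGO1/2/3-/- passage 11 or 12 or wild-type passage 27 (2.95 to 3.35). In the 2-group fit the AGO2 call in AGO1/2/3-/- was kept and the other 3 were lost. Limma called 0 of 4 in AGO1-/- (1.1% of all genes; 1 unadjusted), 0 in AGO2-/- (1.11%; 2 unadjusted) and 0 between AGO1/2/3-/- and AGO1/2-/- (0.0221%; 0 unadjusted). With 1 TPM added, 1 gene was called in each of AGO1-/- and AGO2-/-.

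In wild-type cells the transcripts of 1 gene were distributed differently between the fractions. Of the AGO2 transcripts with no full coding sequence, AGO2-203, AGO2-204, AGO2-206, AGO2-207 and AGO2-208 were higher in the nucleus. The retained-intron AGO2-208 was 2.27 ± 0.51 TPM in the nucleus and 0.141 ± 0.063 TPM in the cytoplasm (log2 nucleus minus cytoplasm 3.10 ± 0.54 SE, adjusted p = 3.3e-05), and AGO2-204 was at 0 in the cytoplasm and at least 7.27-fold higher in the nucleus. AGO3-205, also a retained-intron transcript, was 2.09 ± 0.88 and 0.0206 ± 0.036 TPM (5.84 ± 0.93, adjusted p = 1.6e-05). The coding AGO3-202 was nuclear as well, at 4.96, 4.89 and 3.36 TPM against 0.242, 0.218 and 0.0587 TPM (3.69 ± 0.32, adjusted p = 9.8e-10), and AGO3-204, at 0 in the nucleus, was 1.5, 1.64 and 1.45 TPM in the cytoplasm, at least 13.8-fold higher there. Summed, these short coding AGO3 transcripts were higher in the nucleus (1.12 ± 0.21, adjusted p = 8.9e-05), so that the sign for AGO3-204 turned with the sum.

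AGO2-209 and AGO3-201 were higher in the cytoplasm. AGO2-209 was 5.88, 8.08 and 5.85 TPM in the nucleus and 11.4, 11 and 8.91 TPM in the cytoplasm (-1.66 ± 0.17, adjusted p = 1.4e-08), and AGO3-201 was 0.619 ± 0.27 and 1.80 ± 0.54 TPM (-2.52 ± 0.27, adjusted p = 2.5e-08). The full-length AGO3-203 was higher in the nucleus (0.58 ± 0.07, adjusted p = 3.9e-07). AGO1-201, AGO2-201 and AGO4-201 were lower in the nucleus on reads scaled by TMM (-0.76, -0.50 and -0.65; adjusted p = 2.1e-09, 5.5e-06 and 0.0012) but higher on log2(TPM + 1) (0.21, 0.48 and 0.22), so no direction can be given for them. With RLE size factors AGO2-201 and AGO4-201 were not called, nor was AGO2-201 with DESeq2. The median of all transcripts was 0.16 on the TMM scale, 0.49 with RLE size factors and 0.26 on log2(TPM + 1). In all, 16 of 22 members were called (10 higher and 6 lower in the nucleus), beside 59.8% of all transcripts. Of these, 11 held without any single library. AGO2-203 (1.5), AGO2-206 (2.41), AGO2-207 (3.34), AGO3-207 (0.63) and AGO4-202 did not. AGO2-203 ended without cytoplasmic wild-type passage 29 or nuclear passage 27 (1.19 to 1.33), AGO2-206 without cytoplasmic passage 27 or 29 or nuclear passage 27 (2.02 to 2.32), AGO2-207 without cytoplasmic passage 29 (2.79), AGO3-207 without cytoplasmic passage 27 or nuclear passage 28 (0.44 to 0.56) and AGO4-202, at 0 in the cytoplasm, without cytoplasmic passage 28 or 29 (adjusted p up to 0.0511).

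Knockout effects that differed between the fractions by the interaction test were found for 1 of 22 members in AGO1-/- (AGO1-201; 0.216% of all transcripts), 1 in AGO2-/- (AGO3-203; 1.89% of all), 6 in AGO1/2-/- (17.3% of all) and 6 in AGO1/2/3-/- (11.2% of all). The 6 of AGO1/2-/- were AGO1-201, AGO2-201, AGO2-204, AGO3-202, AGO3-203 and AGO3-204. In AGO1/2/3-/- they were AGO1-201, AGO2-201, AGO3-201, AGO3-202, AGO3-203 and AGO3-204. The AGO1/2/3-/- count was 3 without nuclear wild-type passage 27 or 28, the AGO2-/- count 0 without any AGO2-/- library of either fraction, cytoplasmic wild-type passage 29 or nuclear wild-type passage 27 or 28, and the AGO1-/- count 2 without cytoplasmic wild-type passage 28 or nuclear passage 29.

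The transcripts whose levels ran most like the leading transcripts of AGO1, AGO2 and AGO3 were found by Pearson's r of log2(TPM + 1) over the 10 group means among 31830 transcripts of other genes. AGO1-201 was most like SLC45A3-201 (r = 0.94), AGO2-201 most like PHF7-207 (0.95) and AGO3-203 most like ERCC6L2-201 (0.9975). These are the highest of many values, and the 10 means share their libraries and depth with the members, so these are descriptions.

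Genes that work with Argonautes were set beside the members. Of transcripts of 18 partner genes (TNRC6 scaffolds, DICER1 and DROSHA complexes, the export receptor XPO5, HSP90 chaperones that load guides, and decay factors), 147 were tested in the nucleus and 126 in the cytoplasm. In the nucleus 12 were called in AGO1-/- (11 higher), 17 in AGO2-/- (16 higher), 73 in AGO1/2-/- (31 higher and 42 lower) and 47 in AGO1/2/3-/- (24 higher and 23 lower). That is 8.16%, 11.6%, 49.7% and 32.0% of the list, beside 6.68%, 13.0%, 37.4% and 28.4% of all transcripts. In the cytoplasm edgeR called 0, 1, 18 (4 higher) and 6 (3 higher), which is 0%, 0.794%, 14.3% and 4.76% of the list and below the 1.61%, 2.47%, 16.4% and 10.5% of all transcripts. In AGO1-/- 14 had an unadjusted p of at most 0.05 and DESeq2 called 3. Directions of this list turned with the scale: on log2(TPM + 0.1) the nuclear calls were 2 higher and 3 lower in AGO1-/-, 2 higher and 17 lower in AGO2-/-, 19 and 47 in AGO1/2-/- and 6 and 47 in AGO1/2/3-/-. Those given next were among the 31 called as higher in nuclear AGO1/2-/-, where 42 were lower. The leading transcript of PRKRA, a Dicer partner, was 9.67 TPM in nuclear AGO1/2-/- and 4.74 TPM in wild type (1.25 ± 0.13, adjusted p = 9.6e-06). HSP90AB1-203, a chaperone transcript, was 1659 TPM in nuclear AGO1/2-/- and 1283 TPM in nuclear wild type (0.62, adjusted p = 0.0060). In the cytoplasm it was 378 and 1002 TPM in the same order (-1.02 ± 0.11, adjusted p = 5.2e-05).

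Of the PIWI genes, germline relatives of the Argonautes, 2 of 4 had a transcript high enough to test, with 4 transcripts tested in each fraction. By edgeR and by DESeq2 0 were called in each line and fraction. At an unadjusted p of at most 0.05, 1 cytoplasmic transcript stood out in AGO1-/-, AGO2-/- and AGO1/2/3-/-, and 0 in AGO1/2-/- and in each nuclear comparison. On log2(TPM + 0.1) 1 was called in cytoplasmic AGO1/2/3-/-. The genes next to AGO4, AGO1 and AGO3 on chromosome 1 had 12 nuclear transcripts tested, of which 2 were called in AGO1-/-, 2 in AGO2-/-, 7 in AGO1/2-/- and 4 in AGO1/2/3-/-, all higher. These are 16.7%, 16.7%, 58.3% and 33.3% of the list, beside 6.68%, 13.0%, 37.4% and 28.4% of all transcripts. On log2(TPM + 0.1) the counts were 0, 0, 4 (all higher) and 3 (2 higher). In the cytoplasm 0, 1, 3 and 2 of 10 were called. Among the 58 tested nuclear transcripts of the genes next to AGO2, 6 were called in AGO1-/- (5 lower), 7 in AGO2-/- (3 lower), 32 in AGO1/2-/- (29 lower) and 24 in AGO1/2/3-/- (22 lower). These are 10.3%, 12.1%, 55.2% and 41.4% of the list, beside the nuclear shares of all transcripts given above. On log2(TPM + 0.1) 11, 16, 34 and 32 were called as lower. In the cytoplasm 0, 0, 5 and 5 of 45 were called, all lower. That is 0%, 0%, 11.1% and 11.1% of the list, beside the cytoplasmic shares of all transcripts given above. By edgeR the 0 cytoplasmic calls of AGO1-/- stood beside 0 transcripts of the chromosome 1 genes and 3 of the genes next to AGO2 at an unadjusted p of at most 0.05, and DESeq2 called 0 and 2. For the genes next to AGO2 in AGO2-/- these numbers were 3 and 0.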

How the data were processed

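RNA was sequenced from nuclear and cytoplasmic fractions of HCT116 cells of 5 genotypes, with 3 passages per genotype and fraction (30 libraries). The 8 eCLIP samples of the series were not analysed here. The deposited estimated counts per transcript were made by the authors with Salmon from reads aligned to hg38 with STAR, without normalization between libraries. The deposited TPM values come from the same Salmon run, scaled by effective transcript length and library total. The submitters' processing notes name STAR 2.5.3a and Salmon 0.11.0, the study's methods name other versions, and the sources also differ on the RNA extraction and library kit. The annotation version was not clear from the sources, so names and exons were taken from GENCODE 44, which held 195887 of the 200401 transcripts (4514 unmatched). Each library was quantified alone.

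Reads on shared exons are divided by a model, so levels of transcripts with little sequence of their own are uncertain. Depth ranged from 20431557 to 79731793 estimated reads. Intervals and floors cover the errors they are computed from and no other.

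Estimated counts were rounded and tested with edgeR 4.0.16 (quasi-likelihood, TMM, filterByExpr with a minimum count of 10) over the 15 libraries of a fraction, or all 30 for the comparison of fractions and the interaction. Shares and the non-coding to coding balance were tested with limma 3.58.1 (trend) on log2 ratios of TPM with 0.1 TPM added, for genes with at least 2 transcripts and a mean of at least 1 TPM and, for shares, transcripts of at least 0.1 TPM. Benjamini-Hochberg adjustment ran over everything tested, and 0.05 was the threshold. Floors for groups at 0 used 3 reads per library. DESeq2 1.42.0, RLE size factors, other filters, TPM scales and pseudocounts, fits of 2 groups alone, a replicate block and fits without each library were the alternatives. The code was tested on simulated data, in R 4.3.3 and Python 3.11.15.

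Every transcript of AGO1 to AGO4 was a member, and those with a mean of at least 1 TPM in any group were named with values. For likeness, the 3 closest transcripts of other genes were ranked and the first is given, except for AGO4-201, whose likeness is not reported here. The gene lists were 18 Argonaute partners, 4 PIWI genes and the 3 nearest protein-coding genes on each side of the members. Members and lists were chosen with earlier results of these data known.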

Additional observations from a re-analysis of the deposited data

Results flagged for a closer look

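The results below are listed because the effect of a knockout on a transcript differed between nucleus and cytoplasm by the interaction test of edgeR over 30 libraries. Each value is the nuclear log2 change against wild type minus the cytoplasmic one. For AGO1-201 it was 2.106 in AGO1-/-, 1.364 in AGO1/2-/- and 1.62 in AGO1/2/3-/-, since the fall was larger in the cytoplasm in each line. AGO2-201 gave -0.3373 in AGO1/2-/- and -0.4073 in AGO1/2/3-/-. AGO3-203 gave -0.4007 in AGO2-/-, -0.468 in AGO1/2-/- and -0.5135 in AGO1/2/3-/-. AGO3-201 gave 1.342 in AGO1/2/3-/-, and AGO3-202 gave -2.164 in AGO1/2-/- and -1.385 in AGO1/2/3-/-.

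For AGO2-204 in AGO1/2-/- the fitted value was -7.833, with cytoplasmic wild type at 0. For AGO3-204 it was 7.845 in AGO1/2-/- and 8.354 in AGO1/2/3-/-, with nuclear wild type at 0. These 3 fitted values rest on a group at 0 and are no measure of size. Between 1 and 6 of 22 members were called per line.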

How the results depend on the processing

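Of 92 called member values, 46 held without any single library and 29 held under every alternative as well. Over the other settings, 366 of 474 values kept direction and call, 96 lost the call and 12 reversed, and over the fits without a library 449 of 636 kept both, 187 lost the call and 0 reversed. Where no reason is stated, the cause was not tested. Reversed on log2(TPM + 1) were the fraction values of AGO1-201 (0.2066), AGO2-201 (0.4773) and AGO4-201 (0.2198). Cytoplasmic AGO1/2-/- values turned to -0.04881 and -0.04674 for AGO2-201 and -0.03366 and -0.02433 for AGO3-203 (log2(TPM + 0.1) and log2(TPM + 1)). Once AGO3-202 and AGO3-204 were summed, the value that replaced AGO3-204 was 1.117 for the fractions, -1.088 and -1.577 for the interactions in AGO1/2/3-/- and AGO1/2-/-, and -0.413 and -0.7632 for their nuclear levels.

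Counts of members called moved as follows, with the reported count first. The share of everything called under each setting, or without each library, is not given beside them. A move of a count is thus no result about the members. Levels: cytoplasmic AGO1/2/3-/- 7 to 4 and AGO1/2-/- 6 to 2 with 2 groups in the fit, AGO1-/- 1 to 2 on either TPM scale, nuclear AGO1/2-/- 9 to 14 on log2(TPM + 1), AGO1-/- 2 to 6 (DESeq2), 5 (either TPM scale) or 1 (2 groups), and AGO1/2/3-/- against AGO1/2-/- 0 to 1 (DESeq2). Interactions: 6 to 10 in AGO1/2/3-/-, 6 to 10 in AGO1/2-/-, 1 to 4 in AGO1-/- and 1 to 2 in AGO2-/- on log2(TPM + 1), and 1 to 2 in AGO1-/- with RLE. Cytoplasmic shares in AGO1/2/3-/-: 2 to 1 (edgeR within genes), 8 (no minimum), 0 (2 groups), 0 (coding only), 1 (0.01 TPM added) and 8 (1 TPM added). In AGO1/2-/-: 1 to 0, 5, 0, 0 and, with 1 TPM, 4. In AGO2-/-: 1 to 0 (edgeR), 0 (2 groups), 0 (coding only) and 6 (1 TPM), and in AGO1-/- 0 to 1 (1 TPM). Nuclear shares: AGO1/2/3-/- 4 to 2 (2 groups), AGO1/2-/- 6 to 2 (edgeR), 3 (2 groups) and 2 (coding only), AGO1-/- 0 to 1 (edgeR) and 2 (1 TPM), AGO2-/- 0 to 1 (edgeR), 2 (no minimum), 1 (2 groups), 1 (coding only) and 3 (1 TPM). Balance: cytoplasmic AGO1/2/3-/- 2 to 1 and AGO1/2-/- 2 to 0 (2 groups), AGO1-/- and AGO2-/- 0 to 1 (1 TPM), nuclear AGO1/2/3-/- 1 to 3, AGO1/2-/- 1 to 2 and AGO1-/- 0 to 1 (1 TPM).

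Without single libraries the counts ranged, for levels, over 3 to 5 (cytoplasmic AGO1/2/3-/-), 2 to 4 (AGO1/2-/-), 5 to 9, 5 to 7, 2 to 4 (nuclear AGO1/2/3-/-, AGO1/2-/-, AGO2-/-) and 0 to 1 (AGO1/2/3-/- against AGO1/2-/-). For shares they were 0 to 2, 0 to 2 and 0 to 1 (cytoplasmic AGO1/2/3-/-, AGO1/2-/-, AGO2-/-), 3 to 7 and 0 to 1 (nuclear AGO1/2-/-, AGO2-/-). For the balance they were 0 to 2 and 0 to 1 (cytoplasmic AGO1/2/3-/-, AGO1/2-/-), 0 to 2 and 1 to 2 (nuclear), and for interactions 3 to 6, 1 to 2 and 0 to 1 (AGO1/2/3-/-, AGO1-/-, AGO2-/-).

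Nuclear and cytoplasmic libraries of a genotype share passage numbers, and their deviations correlated at -0.002 to 0.101, with 1 of 15 pairs over 0.1, so the numbers were not taken to pair the samples, although in 13 of 15 pairs the correlation was above the mean with the other numbers. With the passage as replicate block, 14 instead of 16 members were called between fractions (AGO2-206 and AGO4-202 were lost), 2 instead of 1 had an interaction in AGO1-/-, and the interactions of AGO3-204 and of AGO2-204 in AGO1/2-/- lost their call. No paired analysis was possible because, for levels, shares and balance, the genotypes compared share fewer than 2 passage numbers.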
